A study of Mus musculus with 8 samples.

Results

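Autophagy machinery here means 41 genes, from the kinases that start an autophagosome to the membrane proteins of the lysosome that degrades its contents. They are the rows of the deposited expression table whose symbol is on a list of gene names. No measured value enters that rule, but the list was chosen with earlier results of these data known. All 41 were found among the 54532 genes of the table. Each averaged 0.1 FPKM or more (fragments per kilobase of exon, relative to a library size set by the authors) over the 8 livers, so all 41 were among the 16645 genes tested.

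Bulk liver mRNA of 4 METTL3-HKD and 4 METTL3-Flox animals was sequenced after 1 h of warm ischemia and 6 h of reperfusion, to ask which transcripts differ when the m6A methyltransferase METTL3 is reduced in hepatocytes. METTL3-HKD mice had the genotype METTL3 flox/-; Alb-iCre, in which Cre under the albumin promoter acts in hepatocytes on a floxed exon 4, and they are a heterozygous model. METTL3-Flox mice were flox/flox littermates, with no Cre in the stated genotype. Both groups carried the floxed allele and the C57BL/6 background, both underwent the same ischemia and reperfusion, and no sham-operated liver was analysed here, so every difference below is between injured livers. The age and sex of the sequenced mice are not given in the sources used here. Where the values of all livers are listed, replicates 1 to 4 of METTL3-HKD come first, followed after "against" by replicates 1 to 4 of METTL3-Flox.

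Macroautophagy encloses cytoplasm, protein aggregates or organelles in a double membrane and delivers them to lysosomes. The ULK kinase complex starts the process, a phosphatidylinositol 3-kinase (PI3K) complex marks the site with lipid, and lipid-transfer proteins enlarge the membrane. Ubiquitin-like conjugation enzymes then attach the ATG8 proteins (LC3 and GABARAP) to that membrane, where cargo receptors dock. In liver, autophagy recycles amino acids during fasting and removes damaged mitochondria after anoxia.

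Mettl3 itself, listed as ENSMUSG00000022160, had 1.56, 1.39, 1.17 and 1.20 against 1.84, 1.16, 1.45 and 1.54 FPKM. The groups overlapped (log2 fold change −0.16, standard error 0.165, limma adjusted p = 0.556). The FPKM covers all exons of the gene, and 933 of its 5076 exon bases are shared with Tox4 on the opposite strand, so the gene-level value did not check the genotype labels. The libraries held 15961479 to 18434488 reads on genes in METTL3-HKD livers and 15861245 to 17262991 in METTL3-Flox livers. METTL3-HKD livers formed 2 pairs: the reads per gene of livers 1 and 2, and of livers 3 and 4, differed with a chi-square per degree of freedom of 27.6 and 27.3, against 63.6 to 92.1 across the pairs. METTL3-Flox livers were uneven as well, with 24.1 to 42.9 among livers 2, 3 and 4 and 51.3 to 81.3 between liver 1 and these. The 10 hepatocyte markers were above 0 in every liver, and their summed level was 23242 to 33857 FPKM in METTL3-HKD and 29992 to 34305 FPKM in METTL3-Flox livers.

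Of the 41 autophagy genes, 2 rose in METTL3-HKD livers (Atg2a and Atg12) and 6 fell (Ulk1, Ulk2, Uvrag, Map1lc3b, Pink1 and Lamp2), by limma's moderated test on log2(FPKM + 0.1) with an adjusted p under 0.05 over all genes tested. The other 33 did not pass. Among all genes tested, 9.05% rose and 6.63% fell, beside 4.88% and 14.6% of the autophagy genes. Among the 10694 genes that averaged 1 FPKM or more, a level that all 41 reached, 10.4% rose and 9.01% fell. With the study's fold threshold added, an absolute log2 fold change of 1 or more, Atg2a was called as higher (4.7% of all genes) and 0 autophagy genes as lower (1.52% of all genes). Apart from Atg2a, the log2 fold changes lay between −0.63 and 0.63.

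Most of the 41 log2 fold changes were negative, though few passed the test. The log2 fold change was negative for 30 of 41 autophagy genes (73.2%, against 50.3% of all genes) under the deposited scaling and for 22 of 41 (53.7%, against 32.3% of all genes) when each library was instead scaled to its reads on genes. Their median was −0.22, beside −0.00 over all genes. Every METTL3-HKD liver lay on one side of every METTL3-Flox liver for 14 genes, of which 12 were lower (9.95% of all genes) and 2 higher (12.7% of all genes). That is 34.1% of the members against 22.6% of all genes (27% of those that averaged 1 FPKM or more). Scaled to reads on genes, the groups did not overlap for 10 members, 3 lower and 7 higher, and for 23.3% of all genes, so the split between lower and higher turned with the scaling. An unadjusted p under 0.05 was reached by 22 genes, 16 lower (15.1% of all genes) and 6 higher (16.7% of all genes), against 31.9% of all genes in either direction. Scaled to reads on genes, it was reached by 4 lower and 7 higher autophagy genes, beside 5558 of 16696 genes tested in either direction.

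Scaling mattered for these directions. The deposited values were already scaled between libraries, with a median-of-ratios factor of 1.006 in every liver. Scaling to reads on genes moved the median over all genes from −0.00 to 0.20. The median of the autophagy genes moved with it, to −0.01, so that it lay 0.21 below the median of all genes under the deposited scaling and 0.20 below under the other. Calls followed the shift, with 3 autophagy genes higher (Atg2a, Atg12 and Tfe3) and 0 lower by limma (4 lower at an unadjusted p under 0.05), while over all genes the split changed from 1506 higher and 1104 lower to 2309 higher and 374 lower. All 6 genes that fell kept a negative log2 fold change under that scaling, between −0.19 and −0.41.

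**Figure D1:**
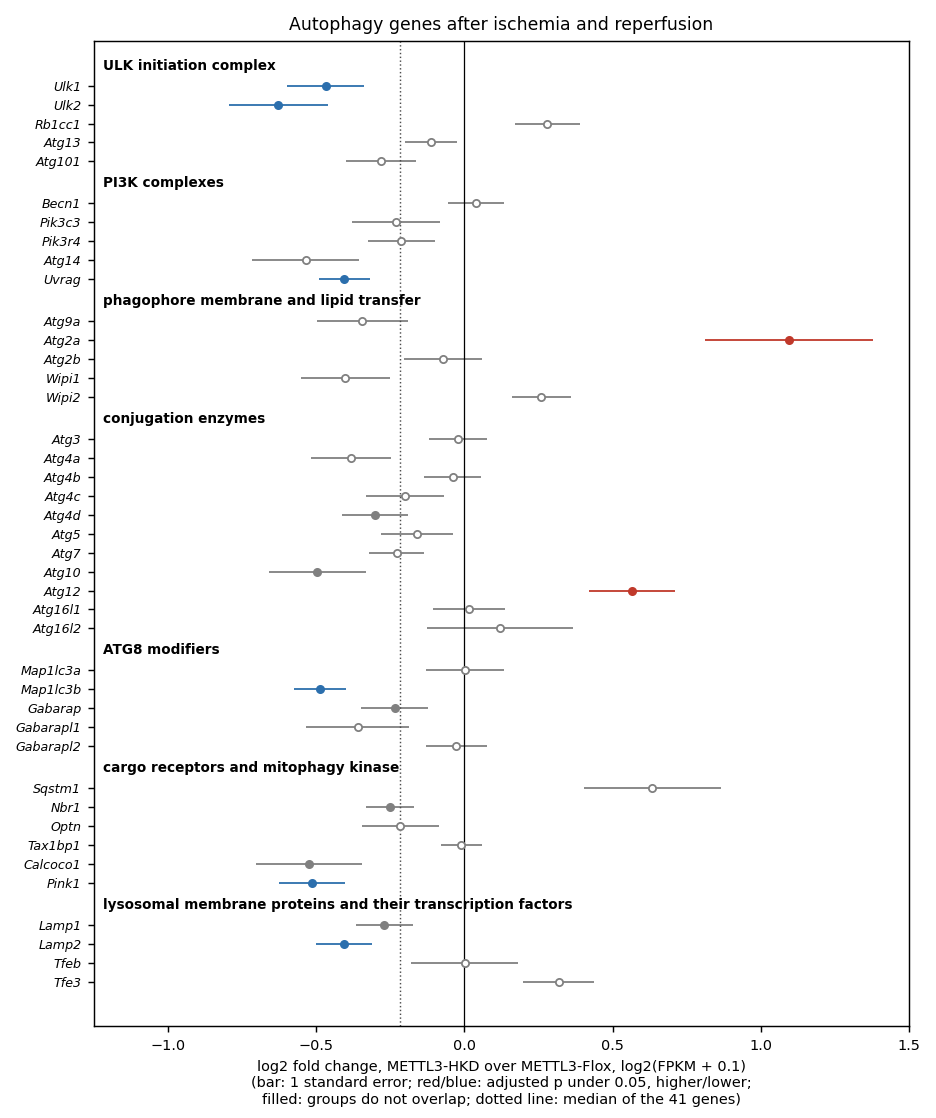
Log2 fold change of each of the 41 autophagy genes in METTL3-HKD over METTL3-Flox livers (x axis, log2(FPKM + 0.1) scale, 4 livers per group), grouped by role, with bars of 1 standard error, coloured points for an adjusted p under 0.05 and filled points where the groups do not overlap. Atg2a at 1.10 and Atg12 at 0.57 are the called genes to the right, 6 called genes lie to the left, and the dotted median of the 41 genes is at −0.22 (−0.01 when libraries are scaled to reads on genes).

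Markers of other cell types moved between the groups as well. Neutrophil markers rose in METTL3-HKD livers for 8 of 8 genes, with a summed level of 341 to 1684 FPKM against 14.5 to 46.1 FPKM, and Ly6g was the 1 marker at 0 in some livers (METTL3-Flox 2, 3 and 4). Kupffer cell and macrophage markers fell for 4 of 8 genes, with a summed level of 120 to 245 FPKM against 238 to 587 FPKM. The 10 hepatocyte markers had a median log2 fold change of −0.39, and 1 of them (Hnf4a) passed the test. Biliary markers rose for 4 of 5 genes, sinusoidal endothelial markers fell for 2 of 7, stellate cell markers fell for 1 of 6, and 0 of the 3 lymphocyte markers that were tested passed. Bulk RNA cannot tell fewer cells of a type from less RNA per cell, and the part of these cell types in any autophagy gene's difference was not tested.

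The 5 genes of the ULK initiation complex were led by a fall of both kinase subunits. Ulk1 (ENSMUSG00000029512, GRCm38 chr5:110784488-110810097, minus strand), a serine/threonine kinase that starts autophagosome formation when nutrients are scarce, had 9.33, 10.11, 9.74 and 8.57 against 10.21, 15.06, 12.91 and 14.72 FPKM. All 4 METTL3-HKD livers lay below all METTL3-Flox livers, though METTL3-Flox liver 1 was close to them. The mean was 9.44 ± 0.66 against 13.2 ± 2.22 FPKM (SD, n = 4 each), a log2 fold change of −0.47 (standard error 0.131, limma adjusted p = 0.0433). Its paralog Ulk2 (ENSMUSG00000004798, chr11:61775649-61855073, minus strand) had 6.30, 8.36, 10.11 and 9.02 against 10.77, 15.94, 13.62 and 11.91 FPKM. Ulk2 also separated the groups and had the most negative log2 fold change of the 41 genes, −0.63 (standard error 0.168, adjusted p = 0.0374, limma). Both kinases were present at like levels in METTL3-Flox livers, with an Ulk1 to Ulk2 ratio between 0.945 and 1.24.

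The other 3 genes of the complex did not pass. Rb1cc1, which encodes the FIP200 scaffold that tethers ULK to the forming membrane, had 3.75, 3.83, 3.31 and 3.22 against 2.71, 3.27, 2.75 and 2.83 FPKM. Its log2 fold change was 0.28 (standard error 0.109, adjusted p = 0.111, limma), with METTL3-Flox liver 2 above METTL3-HKD liver 4. The adaptors Atg13 and Atg101, which bind each other and stabilise the complex, had log2 fold changes of −0.11 and −0.28. Neither kinase held its call against every omission of 1 liver. Ulk1 lost it when any 1 METTL3-HKD liver was left out, or without METTL3-Flox 2, 3 or 4 (adjusted p 0.0617 to 0.105), and Ulk2 lost it without METTL3-HKD 1, 2 or 4 or METTL3-Flox 2, 3 or 4 (adjusted p 0.0599 to 0.0946, limma).

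**Figure D2:**
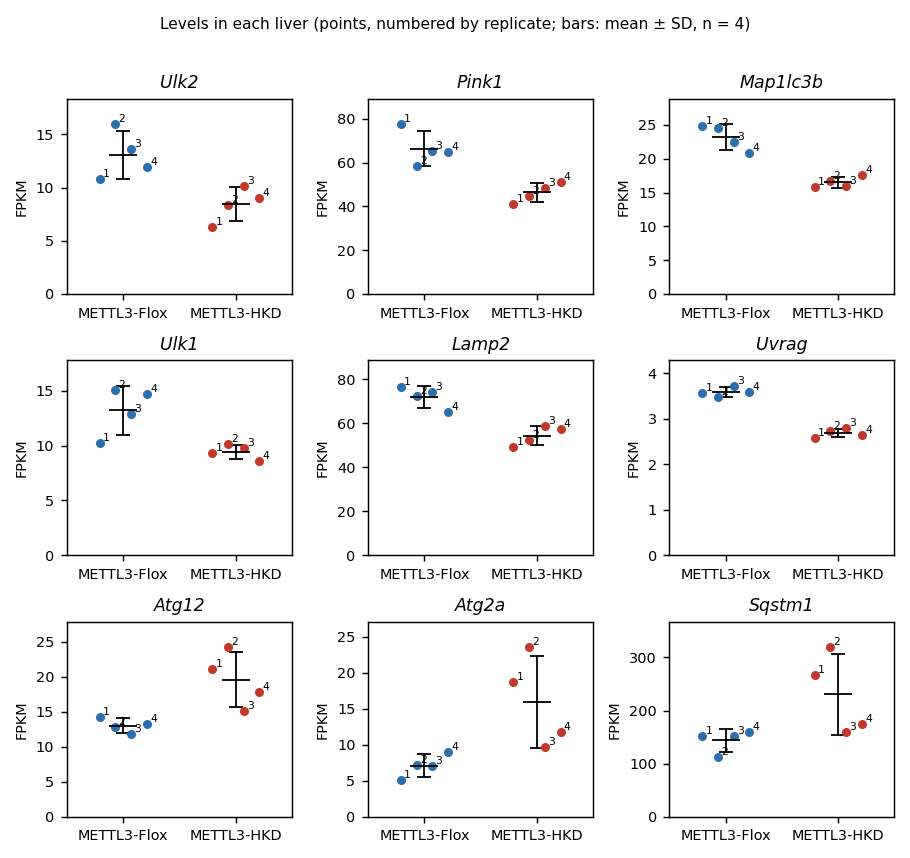
FPKM in each liver (points, numbered by replicate, with the y axis from 0) for the 8 autophagy genes past the threshold and for Sqstm1, with bars of the mean ± SD over 4 livers per group. Under the deposited scaling, Uvrag and Map1lc3b show a clear gap between the groups (2.59 to 2.80 against 3.48 to 3.73 FPKM for Uvrag). Neither passed when libraries were scaled to reads on genes. Atg2a, Atg12 and Sqstm1 are high mainly in METTL3-HKD livers 1 and 2.

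Among the 5 genes of the PI3K complexes, 1 fell. Uvrag (ENSMUSG00000035354, chr7:98885021-99141141, minus strand), the subunit of the complex that acts on endosomes and on autophagosome maturation, had 2.59, 2.73, 2.80 and 2.64 against 3.57, 3.48, 3.73 and 3.60 FPKM. The spread within each group was small, 0.0954 and 0.103 FPKM (SD, n = 4), beside means of 2.69 and 3.59 FPKM. Uvrag fell by 0.41 on the log2 scale (standard error 0.0872, adjusted p = 0.0187, limma). It lost its call for 1 of the 8 omissions, that of METTL3-Flox liver 3 (adjusted p = 0.0578). The small spread and the call are those of the deposited scaling. Scaled to reads on genes, the log2 fold change of Uvrag was −0.20 and did not pass (limma adjusted p = 0.28). An antisense transcript shares 1589 of the exon bases of Uvrag but was at a mean of 0.0508 FPKM. Stretches of 214 to 345 bases in other genes matched Uvrag at 95% identity or more, such as in Tsc2 at a mean of 3.69 FPKM. Whether reads were shared between these genes and Uvrag was not tested.

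Atg14, the counterpart of Uvrag in the complex that acts at the forming autophagosome, had 4.03, 5.01, 3.10 and 3.80 against 4.38, 5.54, 7.02 and 6.35 FPKM. METTL3-HKD liver 2 lay above METTL3-Flox liver 1, and the log2 fold change of −0.54 (standard error 0.18) had an adjusted p of 0.075 from limma, which was 0.0375 without METTL3-Flox liver 1. Becn1, the scaffold of both complexes, had 5.86, 5.59, 6.17 and 6.37 against 6.40, 5.32, 5.53 and 6.11 FPKM. The log2 fold change of Becn1 was 0.04 (standard error 0.0948, adjusted p = 0.811, limma), and the groups overlapped. Cntd1 on the opposite strand shares 3104 of the 7065 exon bases of Becn1 but was at 0.00836 FPKM. The catalytic subunit Pik3c3 and its regulator Pik3r4 stood at −0.23 and −0.21 and did not pass.

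Of the 5 genes for phagophore membrane and lipid transfer, 1 rose. Atg2a (ENSMUSG00000024773, chr19:6241668-6262335, plus strand) encodes a protein that moves lipid from the endoplasmic reticulum into the growing membrane. It had 18.66, 23.56, 9.74 and 11.72 against 5.11, 7.16, 7.05 and 9.04 FPKM. Every METTL3-HKD liver was higher, but liver 3 exceeded METTL3-Flox liver 4 by little. The mean of 15.9 ± 6.37 FPKM was 2.25 times that of 7.09 ± 1.61 FPKM (SD, n = 4 each), and the log2 fold change of 1.10 (standard error 0.283, limma adjusted p = 0.0337) was the largest of the 41 genes. The call was lost without METTL3-HKD 1 or 2 or without METTL3-Flox 1, 2 or 3 (adjusted p 0.0682 to 0.0901, limma). The 250 bases before its start in RefSeq (GRCm38.p6, chr19:6241418-6241667, plus strand) are shown because Atg2a had the largest difference.
Atg2a: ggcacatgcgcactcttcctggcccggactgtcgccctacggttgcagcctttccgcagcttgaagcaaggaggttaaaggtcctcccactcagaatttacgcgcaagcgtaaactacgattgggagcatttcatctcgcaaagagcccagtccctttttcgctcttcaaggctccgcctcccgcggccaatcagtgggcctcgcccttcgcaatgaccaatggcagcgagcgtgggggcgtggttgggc

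Its paralog Atg2b, which has the same activity, had 2.28, 2.40, 2.72 and 2.21 against 2.30, 2.19, 2.65 and 3.04 FPKM, a log2 fold change of −0.07 (standard error 0.132, limma adjusted p = 0.747). The ratio of Atg2a to Atg2b was therefore 8.17, 9.80, 3.59 and 5.30 in METTL3-HKD livers and 2.23, 3.27, 2.65 and 2.97 in METTL3-Flox livers, without overlap. Wipi1 and Wipi2 encode proteins that read the PI3K lipid and recruit the conjugation machinery. Wipi1 had 3.19, 3.85, 3.48 and 4.72 against 4.47, 5.82, 4.36 and 5.56 FPKM (log2 fold change −0.40, standard error 0.151, adjusted p = 0.102, limma), and Wipi2 had a log2 fold change of 0.26 (adjusted p = 0.104). Neither passed alone, but the ratio of Wipi1 to Wipi2 lay between 0.293 and 0.482 in METTL3-HKD and between 0.525 and 0.653 in METTL3-Flox livers. Atg9a, which encodes the scramblase of the seed vesicles, stood at −0.34 and did not pass.

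Ratios between paralogs do not depend on library scaling, so 16 such pairs among the 41 genes were compared by an exact two-sided permutation test of the log2 ratio. Atg2a over Atg2b (difference 1.17) and Wipi1 over Wipi2 (difference −0.66) were the pairs whose groups did not overlap, each with an exact permutation p of 0.0286, the smallest that 4 livers against 4 allow. After Benjamini-Hochberg adjustment over the 16 pairs both had an adjusted p of 0.229 from that test, and no pair passed. With 4 livers against 4, a few pairs at the smallest possible p could not have passed. The adjusted values therefore do not decide whether these ratios differ. The ratio of Lamp1 to Lamp2 was 3.15 to 3.26 in METTL3-HKD and 2.77 to 3.15 in METTL3-Flox livers, which overlapped narrowly.

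The 11 conjugation enzymes held 1 gene that rose and 0 that fell by limma (4 were lower at an unadjusted p under 0.05, and voom gave the same counts). Atg12 (ENSMUSG00000032905) encodes the ubiquitin-like protein that is joined to ATG5 and forms part of the ligase for LC3. It had 21.15, 24.25, 15.20 and 17.86 against 14.29, 12.79, 11.80 and 13.31 FPKM. All METTL3-HKD livers were higher, with a mean of 19.6 ± 3.94 against 13.05 ± 1.04 FPKM (SD, n = 4 each) and a log2 fold change of 0.57 (standard error 0.144, limma adjusted p = 0.0321). The call was lost without METTL3-HKD 1, 2 or 4 or METTL3-Flox 2, 3 or 4 (adjusted p 0.0518 to 0.0877, limma). The E2-like enzyme that loads ATG12 onto ATG5, Atg10, had 1.77, 1.57, 1.71 and 1.28 against 2.17, 2.88, 2.30 and 1.81 FPKM. The groups of Atg10 did not overlap, but the gap between METTL3-HKD 1 and METTL3-Flox 4 was small, the values rested on 41 to 80 reads, and the log2 fold change of −0.50 (standard error 0.164) had an adjusted p of 0.0711 from limma.

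The other enzymes differed by less. Atg5, the acceptor of ATG12, had 20.1 to 27.4 FPKM in METTL3-HKD and 23.2 to 28.8 FPKM in METTL3-Flox livers (log2 fold change −0.16). The E1-like Atg7 and the E2-like Atg3, which activate and transfer the ATG8 proteins, stood at −0.23 and −0.02. Atg16l1, the partner that places the ATG12 and ATG5 conjugate on the membrane, had 3.86 to 4.14 against 3.50 to 4.96 FPKM (log2 fold change 0.02), and its paralog Atg16l2 stood at 0.12. The 4 genes of the ATG4 protease, which trims ATG8 proteins before conjugation and frees them afterwards, had log2 fold changes from −0.38 (Atg4a) to −0.04 (Atg4b), and for Atg4d at −0.30 the groups did not overlap. Kri1 on the opposite strand, at 0.893 FPKM, shares 1405 exon bases with Atg4d. Beside Atg12, the 10 enzymes had adjusted p values from 0.0711 to 0.946 and did not pass.

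**Figure D3:**
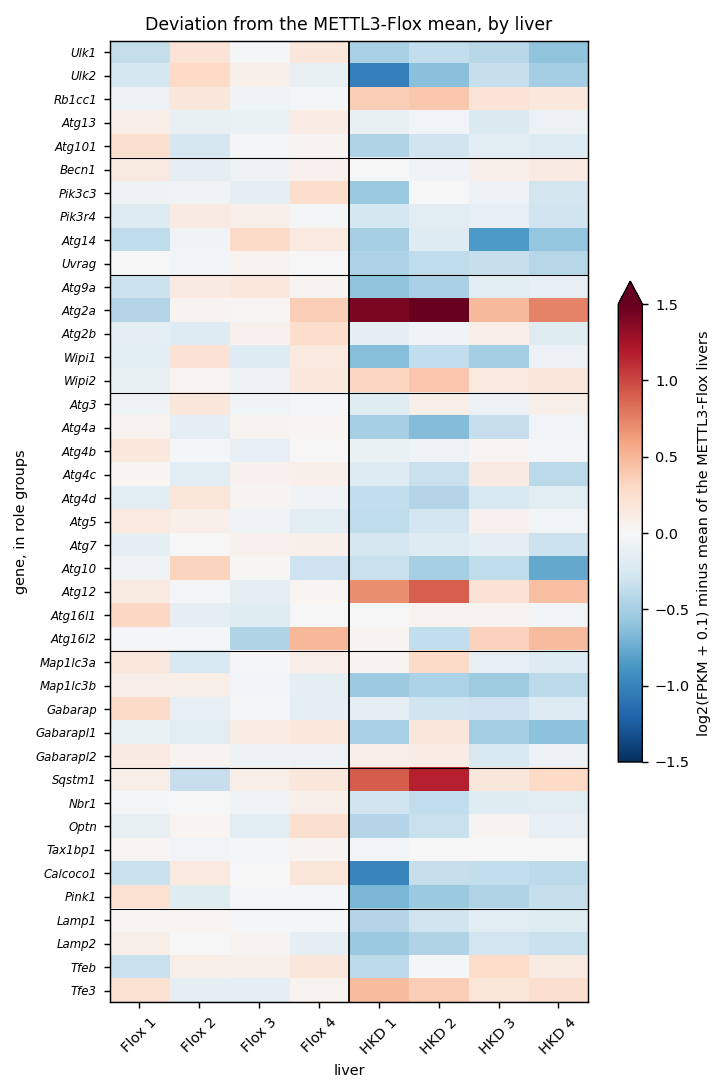
Deviation of each autophagy gene (rows, by role) in each liver (columns) from the mean of the 4 METTL3-Flox livers, in log2(FPKM + 0.1), red for higher and blue for lower. METTL3-HKD livers 1 and 2 are the most red for Atg2a, Atg12 and Sqstm1. Under the deposited scaling, shown here, the blue of Uvrag and Map1lc3b is even over all 4 METTL3-HKD livers.

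Of the 5 ATG8 modifiers, the proteins that coat the autophagosome membrane, Map1lc3b fell. Map1lc3b (ENSMUSG00000031812, chr8:121590361-121598760, plus strand) encodes LC3B, whose lipid-bound form is the usual marker of autophagosomes. It had 15.80, 16.66, 15.91 and 17.62 against 24.83, 24.61, 22.53 and 20.89 FPKM. The highest METTL3-HKD liver lay below the lowest METTL3-Flox liver. The mean was 16.5 ± 0.842 against 23.2 ± 1.86 FPKM (SD, n = 4 each), a log2 fold change of −0.49 (standard error 0.0868, limma adjusted p = 0.0105), the smallest adjusted p among the 41 genes. It passed after each of the 8 omissions of 1 liver, with log2 fold changes from −0.54 to −0.45. The call was lost when libraries were scaled to reads on genes (−0.27, adjusted p = 0.0741) and without both METTL3-HKD livers 1 and 2 (−0.47, adjusted p = 0.0792). The 250 bases before the RefSeq start (GRCm38.p6, chr8:121590188-121590437, plus strand) are shown because this gene kept its call most often.
Map1lc3b: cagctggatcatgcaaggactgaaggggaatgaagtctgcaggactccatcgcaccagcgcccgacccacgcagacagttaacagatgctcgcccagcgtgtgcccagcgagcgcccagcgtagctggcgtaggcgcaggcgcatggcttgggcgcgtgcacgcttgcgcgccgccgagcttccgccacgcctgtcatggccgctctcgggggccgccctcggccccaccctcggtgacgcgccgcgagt

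A near-identical copy of Map1lc3b could share its reads. Gm6055, with 99.6% identity over 282 aligned bases, had 17.6, 23.6, 23.0 and 26.6 against 30.7, 38.6, 31.0 and 27.1 FPKM. Because that gene is short, these levels stand for 134 to 187 and 165 to 236 reads, beside 2160 to 2462 and 2528 to 2989 reads on Map1lc3b. With the reads of both summed and scaled to the deposited library sizes, the log2 ratio of the group means was −0.49, without overlap. Under that scaling, the difference did not depend on how reads were split between Map1lc3b and Gm6055. Gm6055 held few of these reads, so adding them could hardly move the ratio. Before scaling, the log2 ratio was −0.20 for the reads on Map1lc3b, without overlap. It was −0.21 for the reads on Gm6055, where the groups overlapped.

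The other 4 ATG8 genes did not pass. Map1lc3a, which encodes LC3A, had 33.3, 39.7, 29.7 and 28.3 against 36.3, 27.6, 31.7 and 34.9 FPKM, a log2 fold change of 0.00 (standard error 0.132, limma adjusted p = 0.998). Gabarap was the most abundant of the family with 120.6, 108.7, 107.8 and 116.4 against 162.4, 122.8, 131.2 and 120.7 FPKM. Its groups did not overlap, although METTL3-HKD 1 and METTL3-Flox 4 were almost equal, and the log2 fold change of −0.24 had an adjusted p of 0.191 from limma. Gabarapl1 stood at −0.36 (adjusted p = 0.188) and Gabarapl2 at −0.03 (adjusted p = 0.888). Summed over the 5 genes, ATG8 transcripts came to 236 to 292 FPKM in METTL3-HKD and 280 to 333 FPKM in METTL3-Flox livers. Map1lc3a made up 11.7% to 13.6% of that sum in METTL3-HKD and 9.86% to 11.6% in METTL3-Flox livers.

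**Figure D4:**
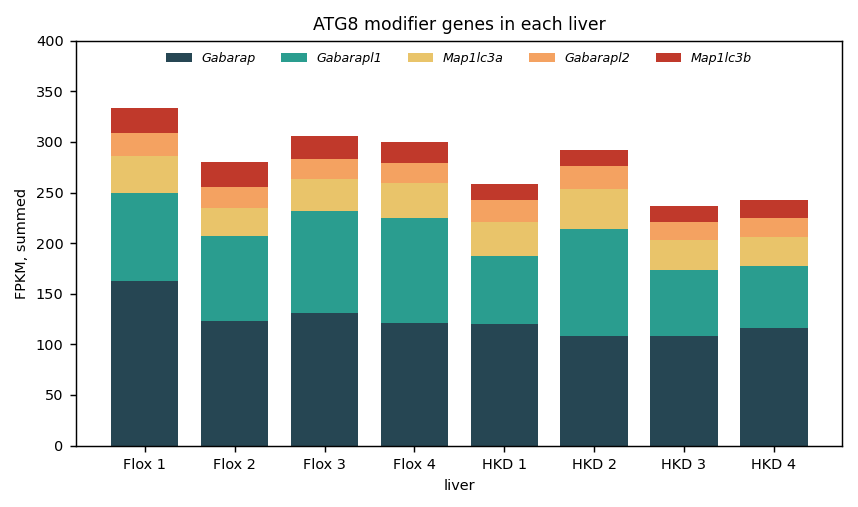
FPKM of the 5 ATG8 genes stacked in each liver (y axis from 0, 4 livers per group). The top segment, Map1lc3b, is thinner in all METTL3-HKD livers (15.8 to 17.6 against 20.9 to 24.8 FPKM), while Gabarap and Gabarapl1 make up most of each bar.

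Of the 5 cargo receptors and the mitophagy kinase, 1 gene fell and 0 rose by limma. Sqstm1 encodes p62, a receptor for ubiquitinated proteins that is itself degraded by autophagy. It had 267, 319, 160 and 175 against 152, 112, 152 and 160 FPKM. METTL3-HKD livers 1 and 2 were high, while liver 3 was just inside and liver 4 just above the METTL3-Flox range. The log2 fold change was 0.63 (standard error 0.232) with an adjusted p of 0.0948 from limma, so Sqstm1 did not pass with all 8 livers, but it did without METTL3-HKD liver 3 (0.79, adjusted p = 0.047). The exons of Sqstm1 share 580 bases with Mrnip on the opposite strand, which had a mean of 0.704 FPKM.

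Pink1 (ENSMUSG00000028756, chr4:138313409-138326307, minus strand), the kinase that marks depolarised mitochondria for removal, fell. It had 41.1, 44.8, 48.3 and 51.4 against 77.5, 58.5, 65.1 and 64.8 FPKM, without overlap. The mean was 46.4 ± 4.45 against 66.5 ± 7.95 FPKM (SD, n = 4 each), a log2 fold change of −0.52 (standard error 0.112, limma adjusted p = 0.0193). The call was lost without METTL3-HKD 1 or 2 or METTL3-Flox 3 (adjusted p 0.0516 to 0.0536). Calcoco1, a receptor for the endoplasmic reticulum and Golgi, had 2.64, 4.18, 4.12 and 4.06 against 4.21, 5.95, 5.37 and 6.08 FPKM. METTL3-HKD liver 1 stood apart as low, the groups did not overlap by a narrow margin, and the log2 fold change of −0.52 (standard error 0.178) had an adjusted p of 0.0762 from limma, or 0.046 without METTL3-Flox liver 1. Nbr1, which cooperates with p62, had 29.0 to 33.5 against 35.8 to 39.4 FPKM (log2 fold change −0.25, adjusted p = 0.0668). Optn stood at −0.22, and Tax1bp1, at 17.6 to 18.6 FPKM in all 8 livers, at −0.01 with the smallest standard error of the 41 genes (0.069).

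Of the lysosomal membrane proteins and the transcription factors that serve them, 1 gene fell. Lamp2 (ENSMUSG00000016534, chrX:38401357-38456454, minus strand), needed for fusion of autophagosomes with lysosomes and for chaperone-mediated autophagy, had 49.0, 52.5, 58.7 and 57.2 against 76.5, 72.4, 74.1 and 65.0 FPKM. The groups did not overlap, and Lamp2 fell by 0.41 on the log2 scale (standard error 0.094, adjusted p = 0.0237, limma). Its call was lost without METTL3-HKD 1 or 2 or METTL3-Flox 2 or 3 (adjusted p 0.0552 to 0.0679). Lamp1, the other major glycoprotein of that membrane, had 154, 171, 189 and 185 against 215, 215, 205 and 205 FPKM, a log2 fold change of −0.27 (standard error 0.0972) whose adjusted p of 0.0906 from limma did not pass although the groups did not overlap. Tfe3 and Tfeb encode factors that activate lysosomal and autophagy genes from the nucleus, and their activity is set mainly by phosphorylation. Tfe3 had 4.46, 4.15, 3.62 and 3.79 against 3.75, 2.87, 2.88 and 3.31 FPKM (log2 fold change 0.32, standard error 0.121, adjusted p = 0.106, limma), with METTL3-HKD liver 3 below METTL3-Flox liver 1. Tfeb had 1.15 to 1.88 against 1.20 to 1.74 FPKM and a log2 fold change of 0.00.

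Promoters bear on these transcription factors, which bind the E-box CACGTG, in lysosomal genes often as TCACGTG. The windows of Lamp1 (GRCm38.p6, chr8:13158911-13159160, plus strand) and Lamp2 (chrX:38456461-38456710, minus strand) are shown 5′ to 3′ up to the RefSeq start, with E-boxes in capitals, because the groups did not overlap for either gene. In Lamp1, 4 E-boxes begin 61, 45, 28 and 15 bases before the start, and in Lamp2 there is 0.
Lamp1: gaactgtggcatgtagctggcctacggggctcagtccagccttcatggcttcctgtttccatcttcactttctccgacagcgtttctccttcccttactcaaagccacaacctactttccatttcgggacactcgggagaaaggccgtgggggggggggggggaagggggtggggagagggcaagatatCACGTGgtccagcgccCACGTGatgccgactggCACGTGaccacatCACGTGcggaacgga
Lamp2: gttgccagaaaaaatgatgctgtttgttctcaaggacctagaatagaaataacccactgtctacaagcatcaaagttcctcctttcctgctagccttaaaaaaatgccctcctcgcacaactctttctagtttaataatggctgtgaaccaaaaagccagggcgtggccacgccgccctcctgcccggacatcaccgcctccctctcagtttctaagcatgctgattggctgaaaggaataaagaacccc
Of the 41 genes, 35 had a RefSeq window of 250 bases before the start (GRCm38.p6). CACGTG was in 4 of these (Atg3, Atg5, Atg7 and Lamp1) and in 5.93% of 27025 windows of that length, 1 per gene. The window of each autophagy gene was the one nearest its annotated 5′ end. The comparison took the window of lowest coordinate for each gene, so the shares here are not strictly matched. The longer TCACGTG, every match of which also holds CACGTG, was in 3 (Atg3, Atg7 and Lamp1) and in 3.07% of all windows, searched on both strands. The Atg7 window lies inside the gene, before a RefSeq start 27999 bases from its annotated 5′ end. Those of Atg4b, Atg14, Wipi2 and Wipi1 also lie inside their genes, before starts 3405, 2215, 1886 and 578 bases from the annotated 5′ end. Some other windows lie partly inside, such as that of Gabarap, whose start is 227 bases from that end. The antioxidant response core TGACNNNGC was in 2 (Atg13 and Ulk2) and in 10.1% of all windows. The heat shock pair GAANNTTC (6.79% of all windows) and the AP-1 site TGANTCA (6.87%) were in 0 of the 35. Of the 8 called genes, 7 had a window and none of these held CACGTG, which says only that the letters are not in those 250 bases.

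The METTL3-HKD livers divided into livers 1 and 2 and livers 3 and 4, and so did several of the autophagy genes and many genes outside the set. Livers 1 and 2 both lay above livers 3 and 4 for 10 of the 41 genes (24.4%, beside 24.97% of all genes) and below them for 15 (36.6%, against 23.2% of all genes). Among genes that averaged 1 FPKM or more, these shares were 26.0% above and 27.6% below. These shares and the ratios below rest on the deposited scaling, which itself differs between the pairs. Its library size over the reads on genes was 1.17, 1.16, 1.02 and 1.01 in METTL3-HKD livers 1 to 4. Relative to reads on genes, it lowers livers 1 and 2 against livers 3 and 4. The shares under the other scaling were not counted. The mean of livers 1 and 2 was 1.97 times that of livers 3 and 4 for Atg2a, 1.75 times for Sqstm1 and 1.37 times for Atg12. For Map1lc3b and Uvrag the same ratio was 0.968 and 0.978. The summed hepatocyte markers were 23242 and 24602 FPKM in livers 1 and 2 and 31573 and 33857 FPKM in livers 3 and 4, and the summed neutrophil markers were 1684, 402, 341 and 576 FPKM in livers 1 to 4. Without livers 1 and 2, 0 autophagy genes rose and 0 fell by limma (2 and 9 at an unadjusted p under 0.05). Over all 16444 genes tested in that fit, 321 rose, 195 fell and 3301 had an unadjusted p under 0.05. Without livers 3 and 4 the counts were 3 higher, Sqstm1 among them, and 6 lower, beside 1617 higher and 1242 lower over all 16659 genes tested.

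The rest of the pathway was taken from 6 lists of 109 genes, of which 107 were in the table and 106 were tested. Of these, 3 rose and 10 fell (2.83% and 9.43%), beside the 9.05% and 6.63% of all genes. Among 15 other early autophagy factors, Sh3glb1 (which binds the Uvrag and Becn1 complex) rose with a log2 fold change of 0.44 (10.1 to 13.3 against 7.97 to 9.09 FPKM, adjusted p = 0.0314) and Ei24 fell with −0.43 (28.2 to 34.3 against 40.6 to 45.8 FPKM, adjusted p = 0.0173, limma). Among 13 fusion genes, the autophagosomal and lysosomal SNARE Vamp8 fell with −0.40 (27.8 to 31.4 against 34.2 to 46.9 FPKM, adjusted p = 0.0448). Among 13 tested mitophagy and ER-phagy receptors, Stbd1, which tethers glycogen to the autophagy machinery, fell with −1.11. Stbd1 had 21.4, 19.5, 50.5 and 53.0 FPKM in the METTL3-HKD group and 65.8 to 74.0 FPKM in the other group (adjusted p = 0.0483, limma), with METTL3-HKD livers 1 and 2 far below livers 3 and 4.

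Of 25 signalling genes, 1 rose and 3 fell. Sesn2, a stress-induced sestrin that restrains mTORC1, rose with a log2 fold change of 1.00 (7.51, 6.14, 4.44 and 5.74 against 2.31, 2.24, 4.09 and 3.27 FPKM, adjusted p = 0.0205, limma). Its paralog Sesn1 fell with −0.61 (1.89 to 2.95 against 3.09 to 3.85 FPKM, adjusted p = 0.0294). Flcn, part of the lysosomal sensor that governs Tfeb and Tfe3 localisation, fell with −0.75 (4.96 to 6.05 against 7.64 to 11.9 FPKM, adjusted p = 0.0115, limma). Keap1, the adaptor that Sqstm1 sequesters, fell with −0.35 (adjusted p = 0.0384).

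Of 24 lysosomal hydrolases and transporters, 1 rose and 4 fell, with a negative log2 fold change for 17 under the deposited scaling. Neu1 (9.76 to 11.7 against 14.9 to 16.9 FPKM, −0.55, adjusted p = 0.00735) and its partner in the same complex Ctsa (22.0 to 26.2 against 28.7 to 34.4 FPKM, −0.46, adjusted p = 0.015) fell, as did Ctsz (−0.43, adjusted p = 0.0366, limma). Gla, alpha-galactosidase, rose with 8.89, 6.58, 4.15 and 5.78 against 2.22, 2.01, 2.78 and 3.22 FPKM (log2 fold change 1.25, adjusted p = 0.0116, limma). The 16 genes of the vacuolar proton pump held 0 calls by limma and 0 by voom, with 4 at an unadjusted p under 0.05 and a median of 0.07. Scaled to reads on genes, 11 pathway genes rose and 0 fell by limma (4 were lower at an unadjusted p under 0.05). Flcn, Gla, Neu1 and Ctsa kept their calls after each of the 8 omissions of 1 liver. Sh3glb1, Ei24, Vamp8, Stbd1, Sesn1, Sesn2, Keap1 and Ctsz lost theirs under 1 (Ei24, without METTL3-Flox 3) to 7 of them.

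**Figure D5:**
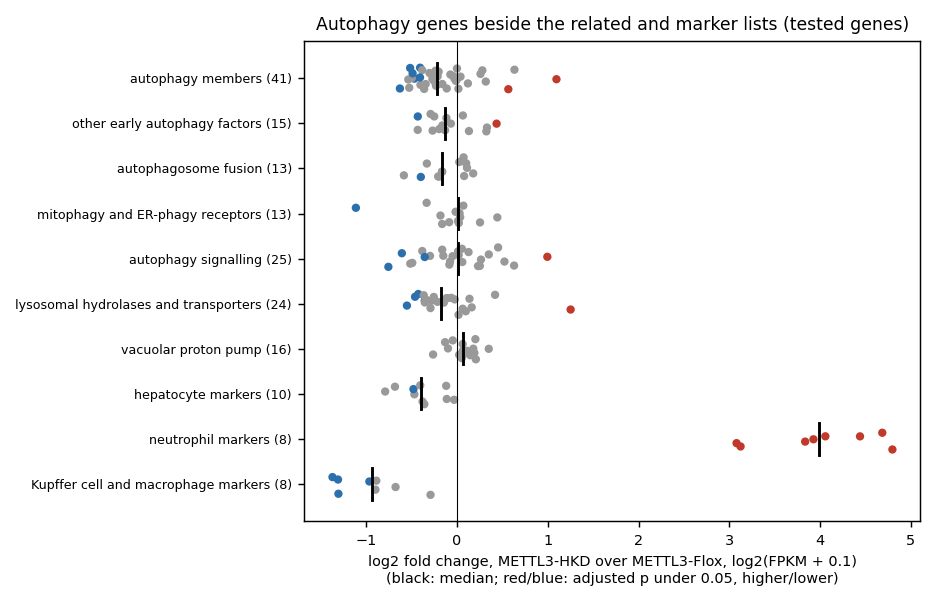
Log2 fold change (x axis, METTL3-HKD over METTL3-Flox livers, log2(FPKM + 0.1), 4 livers per group) of each tested gene in the autophagy set, the related lists and 3 lists of cell markers, with black bars at the medians and coloured points for an adjusted p under 0.05. The autophagy genes spread around −0.22 (−0.01 when libraries are scaled to reads on genes), and the 8 neutrophil markers lie between 3.08 and 4.79.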

How the data were processed

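RNA sequencing of 8 livers was analysed, 4 METTL3-HKD and 4 METTL3-Flox, grouped by the sample titles. The authors deposited 1 table of FPKM per gene and mouse with gene lengths, scaled between libraries. The submitters' processing notes name GRCm38 and mm10, and the aligner, counting, annotation and strand setting are not given in the sources used here. Without strand, reads of overlapping antisense genes cannot be told apart.

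FPKM multiplied by gene length and 1 library size per liver gave whole reads (within 0.05) for 100% of non-zero values, which gave depth and the voom alternative. The 16645 genes averaging 0.1 FPKM or more were compared on log2(FPKM + 0.1) with limma 3.58.1 (trend, two-sided, Benjamini-Hochberg over all genes) in R 4.3.3. Fold changes of low genes are understated on this scale. The code was run on simulated reads with the same dispersion for every gene, no pairs of livers and larger changes than most called members had. That run therefore does not bear on the calls above. Single values used exact permutation tests (scipy 1.17.1, Python 3.11.15) over 70 arrangements. Promoters came from RefSeq GRCm38.p6.

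The members and lists were chosen with earlier results of these data known. Named with every liver are called members, the highest and lowest of each role group, and at most 3 called genes per list and direction. Atg2b, Gabarap, Lamp1, Gm6055 and members named beside counts were added after their values were seen. Alternatives were a pseudocount of 1 FPKM, a minimum of 1 FPKM or none, 2 scalings, no trend, array weights, voom, a replicate block and each liver left out. Of the 2 scalings, median-of-ratios was in effect the deposited one. Leaving out 2 METTL3-HKD livers was added after seeing the data.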

Additional observations from a re-analysis of the deposited data

Results flagged for a closer look

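In 84 groups of 4 livers (41 autophagy genes and Mettl3 in each genotype), 2 held a liver whose gap to the nearest of the others, as a share of the range of the group, was above Dixon's 95% critical value. Chance gives about 1 such group in 20. Gabarapl1, an ATG8 modifier, was at 105 FPKM in METTL3-HKD liver 2, against 61.2 to 67.0 FPKM in the other METTL3-HKD livers. Calcoco1 was at 2.64 FPKM in METTL3-HKD liver 1, against 4.06 to 4.18 FPKM in the other METTL3-HKD livers. Without METTL3-HKD liver 2, Gabarapl1 was among the genes that fell.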

How the results depend on the processing

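The 8 calls were the same genes with a pseudocount of 1 FPKM, a minimum of 1 FPKM or voom, which used the deposited library sizes. Median-of-ratios scaling also gave the same genes, but its factor was 1.006 in every liver, so it could hardly change a call. With all genes above 0 kept, 1 autophagy gene rose and 4 fell, beside 1204 and 682 over all genes. Without the mean-variance trend, 0 rose and 4 fell, beside 1246 and 746 over all genes. In that fit 8 of the 106 pathway genes were called, against 13. Array quality weights called 20 pathway genes, 2 autophagy genes as higher and 8 as lower, beside 1725 higher and 1339 lower over all genes. Scaled to reads on genes, 0 autophagy genes fell, their median was −0.0060 and the log2 fold change of Mettl3 turned to 0.047. With METTL3-HKD livers 1 and 2 left out, 0 rose and 0 fell (321 and 195 over all genes), the median was −0.16 and 1 pathway gene was called. Leaving out 1 liver at a time gave 0 to 3 autophagy genes higher, 1 to 8 lower and 5 to 17 pathway genes called. Over all genes, these fits gave 747 to 1659 higher and 355 to 1148 lower. Without METTL3-Flox liver 3, which gave the fewest calls over all genes (747 higher and 355 lower), Map1lc3b was the 1 autophagy gene called. Livers of the same number did not deviate together (correlations −0.08 to 0.07 over genes), so the numbers do not pair the mice. A replicate block gave 1 higher, 3 lower (Calcoco1, Map1lc3b and Ulk2) and 7 pathway genes called, beside 971 higher and 645 lower over all genes.

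Near-zero differences changed sign. Becn1 was between −0.0035 and 0.084 over omissions of 1 liver and at −0.025 with METTL3-HKD livers 3 and 4 left out. Map1lc3a was at −0.014 with array weights, −0.095 to 0.066 over omissions of 1 liver and −0.16 with METTL3-HKD livers 1 and 2 left out. The 19 alternatives include median-of-ratios scaling, which could hardly change a call. Of the 8 called genes, Map1lc3b kept its call in 17 of 19 alternatives, Uvrag in 15, Pink1 in 13, Lamp2 in 12, Atg12 in 11, Atg2a in 10, Ulk2 in 9 and Ulk1 in 6. The cause of these changes was not tested. Atg10, at 41 to 80 reads, is the gene most limited by depth.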
